A study of Mus musculus with 18 samples.

Results

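The enzymes that make and recycle nucleotides were followed as a group of 32 genes, listed by name. All 32 were in the deposited count table, out of 14695 genes, and all 32 passed the filter on low counts. Of these, 31 were found by name and Hprt, which the table lists as Hprt1, was found by its gene identifier.

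Primary CD8+ T cells taken from mouse spleen and lymph node gave 18 poly-A RNA libraries, 3 in each of 6 groups. The cells had been targeted with CRISPR/Cas9 at Rosa26, a site used as a neutral control, at Atf4 or at Cebpg, and each was cultured for 24 h without treatment or with halofuginone. All 6 groups had therefore been targeted with Cas9, and the untreated Rosa26 cells were the baseline. Mouse strain, age, guides, editing efficiency, drug concentration and activation of the cells are not stated in the labels. Nor do the labels tell whether replicates were separate animals or cultures, and a p-value here reflects the spread among these libraries alone, which may be technical.

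A cell builds purine nucleotides step by step on phosphoribosyl pyrophosphate (PRPP) and pyrimidine nucleotides from carbamoyl phosphate and aspartate. Salvage enzymes instead rejoin free bases or nucleosides to ribose and phosphate. Ribonucleotide reductase then turns ribonucleotides into the deoxynucleotides of DNA, and thymidylate enzymes supply the last of them, dTTP. CD8+ T cells that divide after activation rely on these routes, and many of the genes are known to be transcribed most in S phase. Halofuginone inhibits prolyl-tRNA synthetase and thereby starts the integrated stress response, in which the transcription factors ATF4 and C/EBPγ (from Cebpg) act as partners.

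Levels are given in CPM, read counts scaled to a common library total with TMM factors, with libraries in the order of their replicate numbers. Differences are log2 fold changes from edgeR's quasi-likelihood fit. Their ± is a standard error derived as the absolute fold change over the square root of the F statistic. Intervals of 95% use this error with a normal quantile, so they may be somewhat narrower than the F tests imply. Beside a level ± is the SD of 3 libraries. A gene rose or fell where the p-value, adjusted by Benjamini-Hochberg over all 14695 genes, was under 0.05. Shares of all genes that rose or fell are from this fit, also where member counts under other settings or an unadjusted p stand beside them. Where the libraries of 2 groups are said not to overlap, this describes the values behind a test and adds no support to it. Libraries held 14190361 to 20281602 counts. Atf4 mRNA stood at 268 ± 12.5 CPM in untreated Rosa26 and 285 ± 14.4 CPM in untreated Atf4 knockout cells, and Cebpg at 53.7 ± 1.28 and 56.4 ± 2.33 CPM in Rosa26 and its own knockout. With halofuginone Cebpg mRNA was lower in its own knockout than in Rosa26, at 101 ± 6.37 against 173 ± 8.67 CPM, a log2 difference of -0.78 ± 0.0601 (adjusted p = 3.2e-08). It was also lower in the treated Atf4 knockout, at -0.41 ± 0.0594 (adjusted p = 2.8e-05), and lower in the Cebpg than in the Atf4 knockout, at -0.37 ± 0.0602 (adjusted p = 0.00442). Atf4 mRNA with the drug stood at -0.26 ± 0.101 in its own knockout against Rosa26 (adjusted p = 0.0587). Both targeted mRNAs were thus present in every group.

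The CD8 T cell markers Cd8a (929.6 to 1169 CPM) and Cd3e (152 to 196 CPM) were high in all libraries. The 6 CD8 T markers summed to 3217 to 3340.5 CPM in untreated and 2992 to 3518 CPM in treated Rosa26, 3376 to 3462 and 2571 to 3150.2 CPM in Atf4 knockout and 3376 to 3419 and 2676 to 2884 CPM in Cebpg knockout libraries, with the lowest values in treated knockouts. Of 3 CD4 T markers 2 were measured, the lineage factor Zbtb7b (up to 29.0 CPM) and Foxp3 (up to 11.3 CPM). Their sum moved with drug and genotype: it was 8.19 to 9.09 CPM in untreated and 33.6 to 36.3 CPM in treated Rosa26, 11.8 to 13.9 and 17.0 to 20.4 CPM in Atf4 knockout and 9.74 to 12.4 and 15.4 to 17.4 CPM in Cebpg knockout libraries. Of 4 myeloid markers Cd68 was measured, at 2.24 to 2.46 and 2.79 to 4.23 CPM in Rosa26, 2.40 to 3.44 and 4.18 to 6.87 CPM in Atf4 knockout and 2.32 to 3.38 and 4.72 to 5.79 CPM in Cebpg knockout libraries. Of 4 B cell markers 2 were measured, Cd79b at up to 7.20 CPM and Cd79a at up to 0.793 CPM, and the 2 NK and 3 erythroid markers were not in the table. The part of these markers in the results below was not tested.

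In each halofuginone group 1 library stood apart from the other 2, with fewer counts in unconfirmed transcripts and less of the nuclear RNA Malat1. These were treated Rosa26 library 2, treated Atf4 knockout library 3 and treated Cebpg knockout library 3, which held 672, 1158 and 1960 CPM of Malat1 against at least 2074 CPM in the other treated libraries. The chi-squared per degree of freedom between the counts of 2 libraries picked another library in the Cebpg group. Treated Rosa26 library 2 lay at 21.6 and 17.8 from the others, themselves 7.75 apart. Treated Atf4 knockout library 3 lay at 33.7 and 41.5 from the others, themselves 6.28 apart. Treated Cebpg knockout libraries 1 and 3 were most alike, at 11.8, and library 2 lay at 28.6 and 20.1 from them. Malat1 also moved with genotype in untreated cells, at 858 to 1168 CPM in Rosa26, 2026 to 2606 CPM in Atf4 knockout and 2048 to 2364 CPM in Cebpg knockout libraries, and its part in the results was not tested. Members were higher in the 3 libraries low in Malat1. In the Rosa26 group 30 of 31 members (Nme2, near 0, left aside) lay above the mean of the other 2 libraries, by a median of 0.20 on the log2 scale. In the Atf4 group 28 of 31 did so, by a median of 0.22, and in the Cebpg group 27 of 31, by a median of 0.13. Counts without these 3 libraries stand beside the results. Since most members were higher in them, leaving them out lowers the treated levels of most members. Those counts are therefore no independent check on the falls. Calls over all genes were not counted without these libraries, so a larger count there is not read as a result about the members.

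The promoter windows of 29 of the 32 genes were matched to a RefSeq table of build GRCm38.p6, in which each window runs from 250 bases before a gene's start to 50 after it. The 6 windows below belong to the reductase pair and Tyms, which had large falls, to the neighbours Ppat and Paics, and to Prps1, and they were chosen after the values were seen. Each is printed 5′ to 3′ on the gene's own strand, and capitals mark 4 words searched on both strands: an E2F site (TTTCGCGC, TTTGGCGC, TTTCCCGC or TTTGCCGC), the E-box CACGTG, the CEBP-ATF element TGATGNAA and CCAAT.
Rrm1 (chr7:102441445-102441744, plus strand): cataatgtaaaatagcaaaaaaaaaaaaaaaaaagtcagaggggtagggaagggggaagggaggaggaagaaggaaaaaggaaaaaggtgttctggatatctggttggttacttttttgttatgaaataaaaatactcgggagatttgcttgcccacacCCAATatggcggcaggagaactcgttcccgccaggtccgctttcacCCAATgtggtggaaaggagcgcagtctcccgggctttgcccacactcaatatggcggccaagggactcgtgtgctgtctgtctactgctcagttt
Rrm2 (chr12:24708004-24708303, plus strand): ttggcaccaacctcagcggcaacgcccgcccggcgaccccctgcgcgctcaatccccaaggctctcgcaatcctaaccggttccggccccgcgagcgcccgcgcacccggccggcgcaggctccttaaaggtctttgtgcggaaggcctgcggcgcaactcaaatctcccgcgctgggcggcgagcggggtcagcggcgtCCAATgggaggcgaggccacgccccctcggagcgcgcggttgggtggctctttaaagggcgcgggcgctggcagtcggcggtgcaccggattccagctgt
Tyms (chr5:30073576-30073875, minus strand): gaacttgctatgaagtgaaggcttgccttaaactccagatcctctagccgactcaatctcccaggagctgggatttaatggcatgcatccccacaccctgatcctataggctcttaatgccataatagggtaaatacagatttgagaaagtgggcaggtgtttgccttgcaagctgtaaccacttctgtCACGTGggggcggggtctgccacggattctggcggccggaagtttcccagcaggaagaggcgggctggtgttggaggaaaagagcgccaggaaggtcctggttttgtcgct
Ppat (chr5:76951529-76951828, minus strand): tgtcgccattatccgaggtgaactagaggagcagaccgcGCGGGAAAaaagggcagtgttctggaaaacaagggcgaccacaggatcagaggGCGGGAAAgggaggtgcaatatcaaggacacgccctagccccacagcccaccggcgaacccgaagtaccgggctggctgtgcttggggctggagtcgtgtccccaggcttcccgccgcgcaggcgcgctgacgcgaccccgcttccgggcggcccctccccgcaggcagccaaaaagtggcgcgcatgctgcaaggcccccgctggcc
Paics (chr5:76951052-76951351, plus strand): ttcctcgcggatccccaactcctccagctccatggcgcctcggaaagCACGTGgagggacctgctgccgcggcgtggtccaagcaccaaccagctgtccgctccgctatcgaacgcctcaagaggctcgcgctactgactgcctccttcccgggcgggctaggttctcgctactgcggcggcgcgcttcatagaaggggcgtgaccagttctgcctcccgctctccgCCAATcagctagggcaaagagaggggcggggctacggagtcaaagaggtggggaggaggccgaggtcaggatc
Prps1 (chrX:140456353-140456652, plus strand): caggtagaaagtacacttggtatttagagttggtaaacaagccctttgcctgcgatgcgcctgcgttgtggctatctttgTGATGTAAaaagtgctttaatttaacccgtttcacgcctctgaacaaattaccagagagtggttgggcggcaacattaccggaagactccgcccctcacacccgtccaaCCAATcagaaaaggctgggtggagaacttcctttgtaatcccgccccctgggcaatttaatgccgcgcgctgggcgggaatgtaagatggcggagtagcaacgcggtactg

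Rrm1 held CCAAT at 2 places and Rrm2 at 1, and neither window held an exact E2F word. Tyms held 1 E-box. Ppat and Paics start 276 bases apart on opposite strands of chromosome 5; the Ppat window held 2 E2F words, and that of Paics an E-box and a CCAAT. Prps1 was the only member with the CEBP-ATF element. No 2 words overlapped in the printed windows. Among the 29 members, 2 held an E2F word (6.90%, against 5.04% of 9637 measured genes with a window), 6 the E-box (20.7% against 11.7%), 1 the CEBP-ATF element (3.45% against 2.69%) and 12 CCAAT (41.4% against 43.0%). Among all 32851 windows of the table the shares were 2.26%, 7.15%, 3.97% and 37.4%. A match describes letters only, and exact words miss variant sites.

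Most of these genes fell with halofuginone in all 3 genotypes. In Rosa26 cells 25 of 32 members fell and 2 rose, where 24.1% of all genes fell and 23.6% rose. In Atf4 knockout cells 25 fell and 2 rose, where 26.5% of all genes fell and 23.1% rose. In Cebpg knockout cells 26 fell and 2 rose, where 28% of all genes fell and 23.1% rose. The median log2 change of the members was -0.53, -0.73 and -0.76 in Rosa26, Atf4 knockout and Cebpg knockout cells, beside medians over all genes of 0.02, -0.04 and -0.03. The 2 genes that rose were the same in each genotype, Rrm2b and Ctps2, each the less abundant paralog, per kb of exon, of a gene that fell. Without the 3 libraries that stand apart, 27, 28 and 27 members fell and 2 rose.

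**Figure D1:**
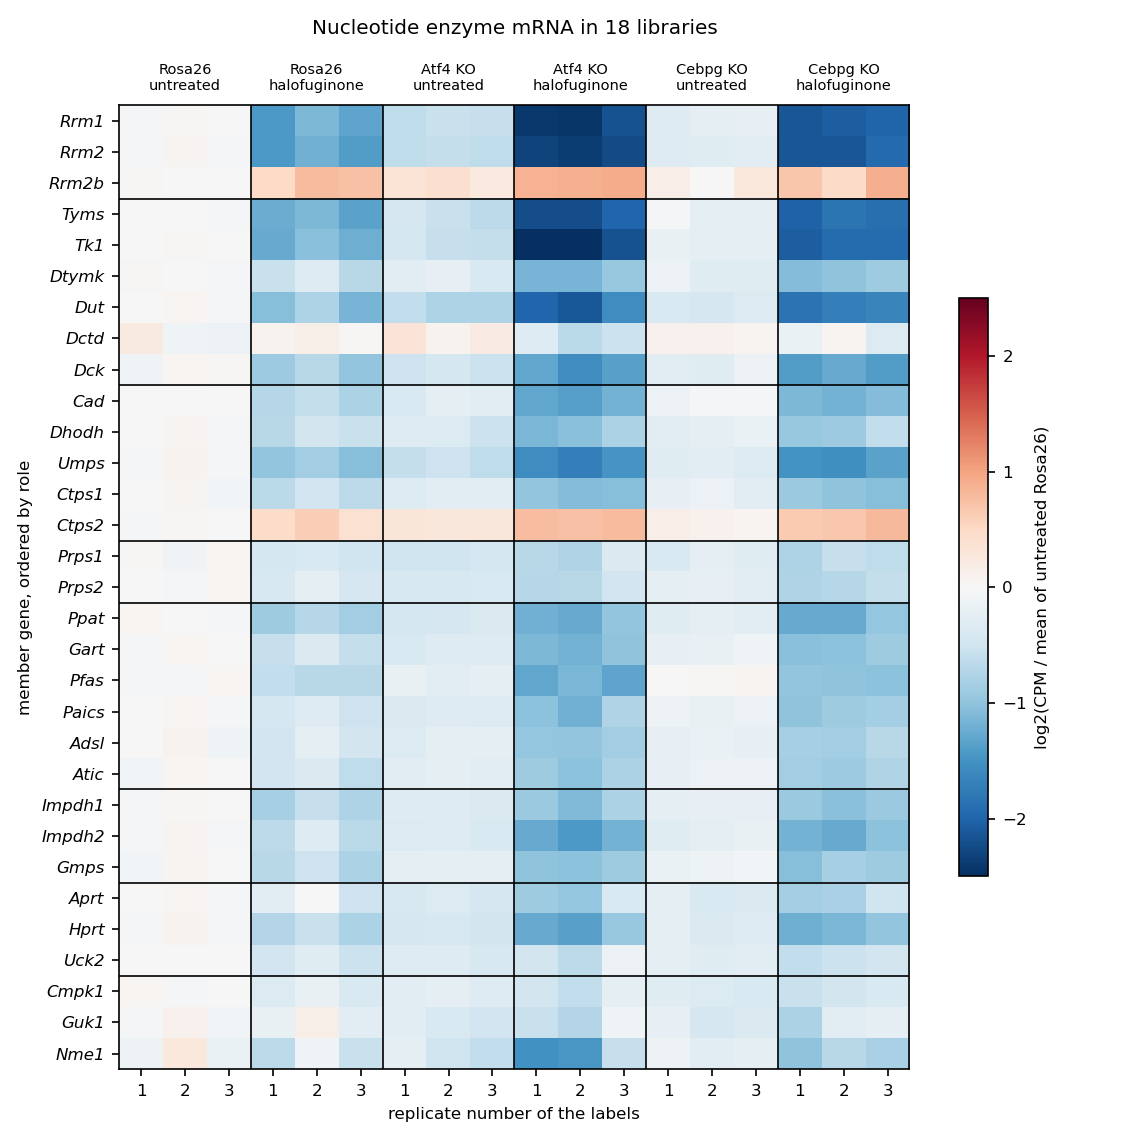
Each cell is 1 member in 1 of 18 libraries, coloured by log2 of its CPM over the mean of untreated Rosa26 libraries (blue lower, red higher; 31 members in order of role, Nme2 left out at 0.119 to 1.47 CPM). Most genes turn blue with halofuginone in each genotype, deepest for Rrm1, Rrm2, Tyms and Tk1 in both knockouts, and Rrm2b and Ctps2 turn red.

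Genes of cell division moved with the members. All 16 genes of a proliferation list (among them Mki67, Pcna and the Mcm2 to Mcm7 helicase subunits) fell with halofuginone in each genotype. Their summed level lay between 7849 to 8033 CPM in untreated and between 3844 to 4283 CPM in treated Rosa26 libraries. In Atf4 knockout libraries it lay between 5689 to 5793 CPM without and 2286 to 2744 CPM with the drug, and in Cebpg knockout libraries between 6688 to 6898 CPM without and 2685 to 2876 CPM with it. Their part in the results on nucleotide enzymes was not tested. In bulk RNA, fewer dividing cells and less RNA per cell cannot be told apart.

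Ribonucleotide reductase is a complex of a large catalytic subunit, Rrm1, and a small subunit, which is Rrm2 in dividing cells. Rrm1 stood at 584, 611 and 609 CPM in Rosa26, 387, 406 and 401 in Atf4 knockout and 478, 506 and 521 in Cebpg knockout cells without the drug. With it, Rrm1 stood at 222, 276 and 241 CPM in Rosa26, 114, 112 and 133 in Atf4 knockout and 137, 144 and 151 in Cebpg knockout cells. The 6 groups did not overlap for Rrm1: untreated libraries ran Rosa26, Cebpg knockout, Atf4 knockout from high to low, all above the treated libraries, which kept that order. Rrm1 fell, with log2 changes of -1.29 ± 0.0764 in Rosa26 (adjusted p = 3.9e-11), -1.74 ± 0.0782 in Atf4 knockout (adjusted p = 5.6e-13) and -1.80 ± 0.0780 in Cebpg knockout cells (adjusted p = 2.8e-13). Rrm2 libraries held 451, 486 and 455 CPM in Rosa26, 299, 307 and 299.8 in Atf4 knockout and 369.6, 374 and 388 in Cebpg knockout cells without the drug. With halofuginone Rrm2 held 171, 202 and 175 CPM in Rosa26, 93.0, 90.1 and 98.9 in Atf4 knockout and 105, 105 and 120.2 in Cebpg knockout cells. Its groups stood in the same order with no overlap. Rrm2 changed by -1.34, -1.68 and -1.78 in the 3 genotypes, and all 3 falls passed the test. Per kb of exon, the Rrm1 level was 32.6 ± 1.01% of the Rrm2 level in untreated Rosa26 and 31.9 ± 1.66% in treated Atf4 knockout cells, so the pair fell by like amounts.

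Rrm2b, the small subunit known as a p53 target that serves non-dividing cells, went the other way. It stood at 21.1, 20.8 and 20.6 CPM in Rosa26, 26.3, 27.4 and 24.7 in Atf4 knockout and 23.4, 21.0 and 24.8 in Cebpg knockout cells without the drug. With the drug it stood at 29.3, 35.8 and 34.7 CPM in Rosa26, 38.1, 38.8 and 39.4 in Atf4 knockout and 33.6, 29.0 and 39.0 in Cebpg knockout cells. Treated libraries were higher than untreated ones in each genotype, with no overlap. Rrm2b rose by 0.67 ± 0.0995 (adjusted p = 1.3e-05) in Rosa26, 0.57 ± 0.0979 (adjusted p = 6.2e-05) in Atf4 knockout and 0.55 ± 0.0994 (adjusted p = 9.7e-05) in Cebpg knockout cells. Its interactions were -0.10 and -0.12, with 95% intervals of -0.38 to 0.17 and -0.40 to 0.16. Per kb of exon Rrm2b was 1.36 ± 0.0638% of Rrm2 in untreated Rosa26 and 5.52 ± 0.424% with halofuginone. The share went from 2.62 ± 0.109% to 12.5 ± 0.498% in Atf4 knockout and from 1.86 ± 0.132% to 9.32 ± 0.791% in Cebpg knockout cells. Rrm2 thus remained the more abundant small subunit mRNA in every group. Rrm2b overlaps a processed pseudogene, Gm3362, on the same strand, and Rrm1 overlaps Gm45399, so reads shared with these are uncertain.

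**Figure D2:**
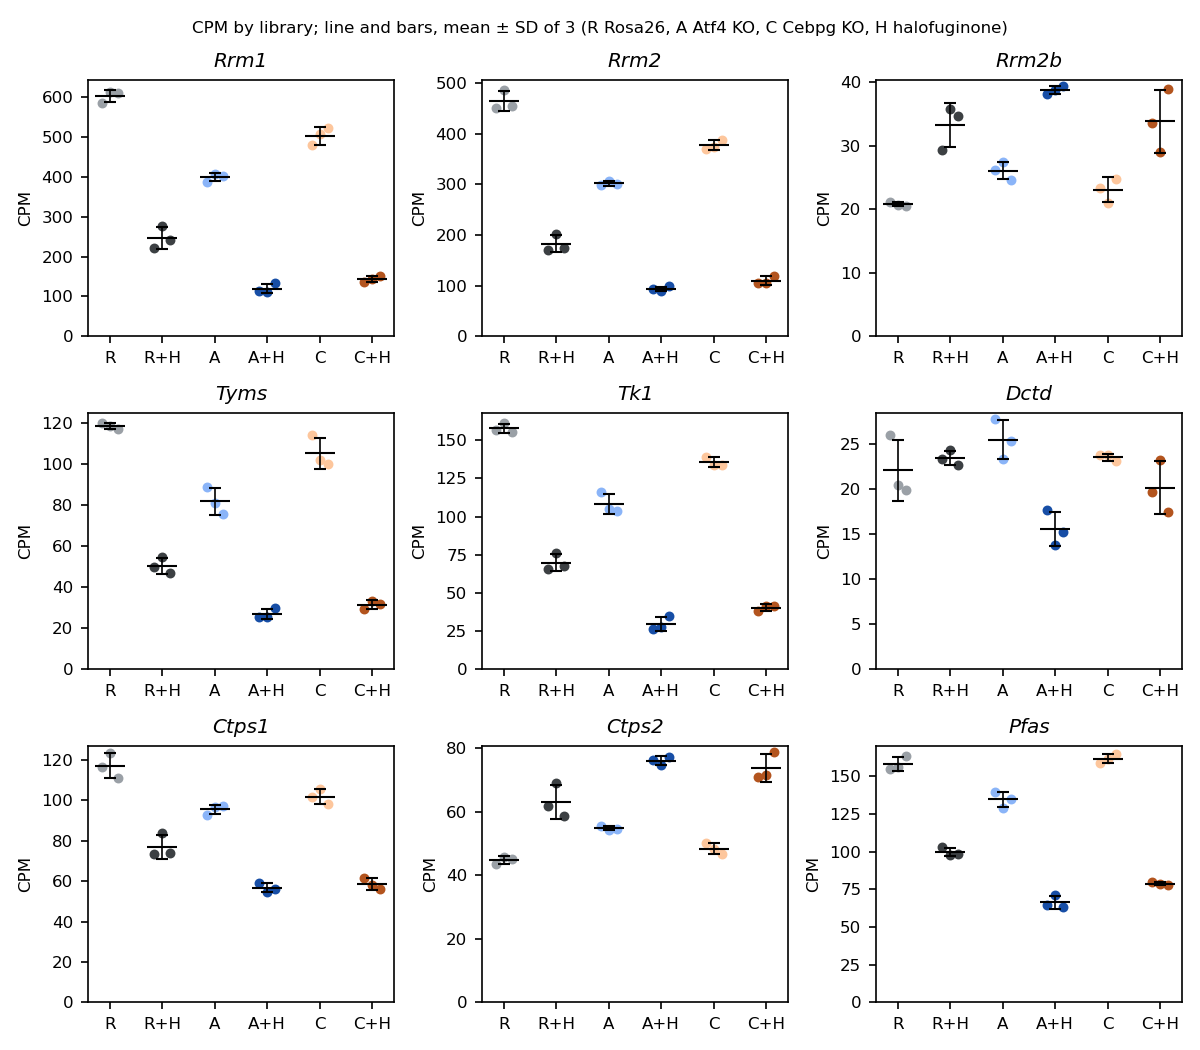
CPM of 9 members by library (points), with the mean and SD of 3 (line and bars), for Rosa26 (R), Atf4 knockout (A) and Cebpg knockout (C) cells without and with halofuginone (H). Rrm1, Rrm2, Tyms, Tk1, Ctps1 and Pfas step down with the drug, Rrm2b and Ctps2 step up, and Dctd is lowest in treated Atf4 knockout libraries, at 17.6, 13.8 and 15.3 CPM, which overlap the treated Cebpg knockout libraries at 19.7, 23.3 and 17.4 CPM.

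Of the 6 thymidylate and deoxynucleotide enzymes, 5 fell in Rosa26 and Dctd did not pass, with medians for the 6 of -0.92, -1.02 and -1.23 in Rosa26, Atf4 knockout and Cebpg knockout cells. Tyms, which methylates dUMP to dTMP, stood at 120.1, 119 and 117 CPM in Rosa26, 88.7, 81.0 and 75.8 in Atf4 knockout and 114, 102 and 100.1 in Cebpg knockout cells without the drug. With it Tyms stood at 49.97, 54.7 and 47.1 CPM in Rosa26, 25.4, 25.5 and 30.0 in Atf4 knockout and 29.3, 33.5 and 32.0 in Cebpg knockout cells. Tyms was lower in treated libraries of each genotype, and the treated knockouts overlapped each other but lay below treated Rosa26. Its log2 changes were -1.23 ± 0.0799, -1.60 ± 0.0841 and -1.74 ± 0.0832 in Rosa26, Atf4 knockout and Cebpg knockout cells, all past the threshold. Tk1, the cytosolic thymidine kinase of S phase, held 156, 161 and 156 CPM in Rosa26, 116, 105 and 104 in Atf4 knockout and 139, 134 and 134 in Cebpg knockout cells without the drug. Tk1 with halofuginone held 65.8, 76.1 and 67.8 CPM in Rosa26, 26.7, 27.7 and 34.8 in Atf4 knockout and 38.0, 41.6 and 41.7 in Cebpg knockout cells. Its groups stood apart without overlap, in the order seen for the reductase. Of the 32 members it fell most in Atf4 knockout cells, with a log2 change of -1.87 ± 0.0851 (adjusted p = 6.5e-13), against -1.17 ± 0.0800 in Rosa26 and -1.75 ± 0.0833 in Cebpg knockout cells. Tk1 shares bases with Afmid on the opposite strand. No label gives the strand setting of the counting, so its level is uncertain.

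Dut hydrolyses dUTP and thereby keeps uracil out of DNA. Dut held 271, 282 and 263 CPM in Rosa26, 179, 159 and 161 in Atf4 knockout and 210.0, 204 and 216 in Cebpg knockout cells without the drug. With the drug Dut held 131, 159 and 121 CPM in Rosa26, 68.6, 62.6 and 92.8 in Atf4 knockout and 75.9, 83.0 and 86.8 in Cebpg knockout cells. Treated libraries lay below untreated ones in each genotype, and the falls of -0.99, -1.15 and -1.36 in log2 passed the test. Dck, the kinase that salvages deoxycytidine, held 134, 147 and 145 CPM in Rosa26, 98.6, 105 and 97.8 in Atf4 knockout and 118, 115 and 129 in Cebpg knockout cells without the drug. Dck with the drug held 75.8, 88.0 and 72.0 CPM in Rosa26, 58.0, 48.4 and 55.7 in Atf4 knockout and 54.2, 59.4 and 54.2 in Cebpg knockout cells. Treated libraries were lower in each genotype, and treated knockouts overlapped each other below treated Rosa26. Dck changed by -0.85, -0.89 and -1.11, falls that passed the test in each genotype. Dtymk, which phosphorylates dTMP, had means that moved from 139 ± 3.19 to 97.5 ± 12.9 CPM in Rosa26, from 114 ± 7.01 to 65.5 ± 5.69 in Atf4 knockout and from 117 ± 8.10 to 70.4 ± 4.97 in Cebpg knockout cells, and its 3 falls passed the test as well.

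Dctd, which deaminates dCMP to dUMP, was the exception among these enzymes. It stood at 25.9, 20.4 and 19.9 CPM in Rosa26, 27.7, 23.4 and 25.4 in Atf4 knockout and 23.7, 23.8 and 23.1 in Cebpg knockout cells without the drug. With it Dctd stood at 23.3, 24.3 and 22.7 CPM in Rosa26, 17.6, 13.8 and 15.3 in Atf4 knockout and 19.7, 23.3 and 17.4 in Cebpg knockout cells. Treated and untreated libraries overlapped in Rosa26 and Cebpg knockout cells but not in Atf4 knockout cells. Dctd changed by 0.09 ± 0.115 (adjusted p = 0.572) in Rosa26, with a 95% interval of -0.14 to 0.31. It fell in Atf4 knockout cells, at -0.71 ± 0.118 (adjusted p = 4.4e-05), and stood at -0.23 ± 0.117 (adjusted p = 0.118) in Cebpg knockout cells. The last passed the threshold without treated Cebpg knockout library 2 (adjusted p = 0.0433).

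**Figure D3:**
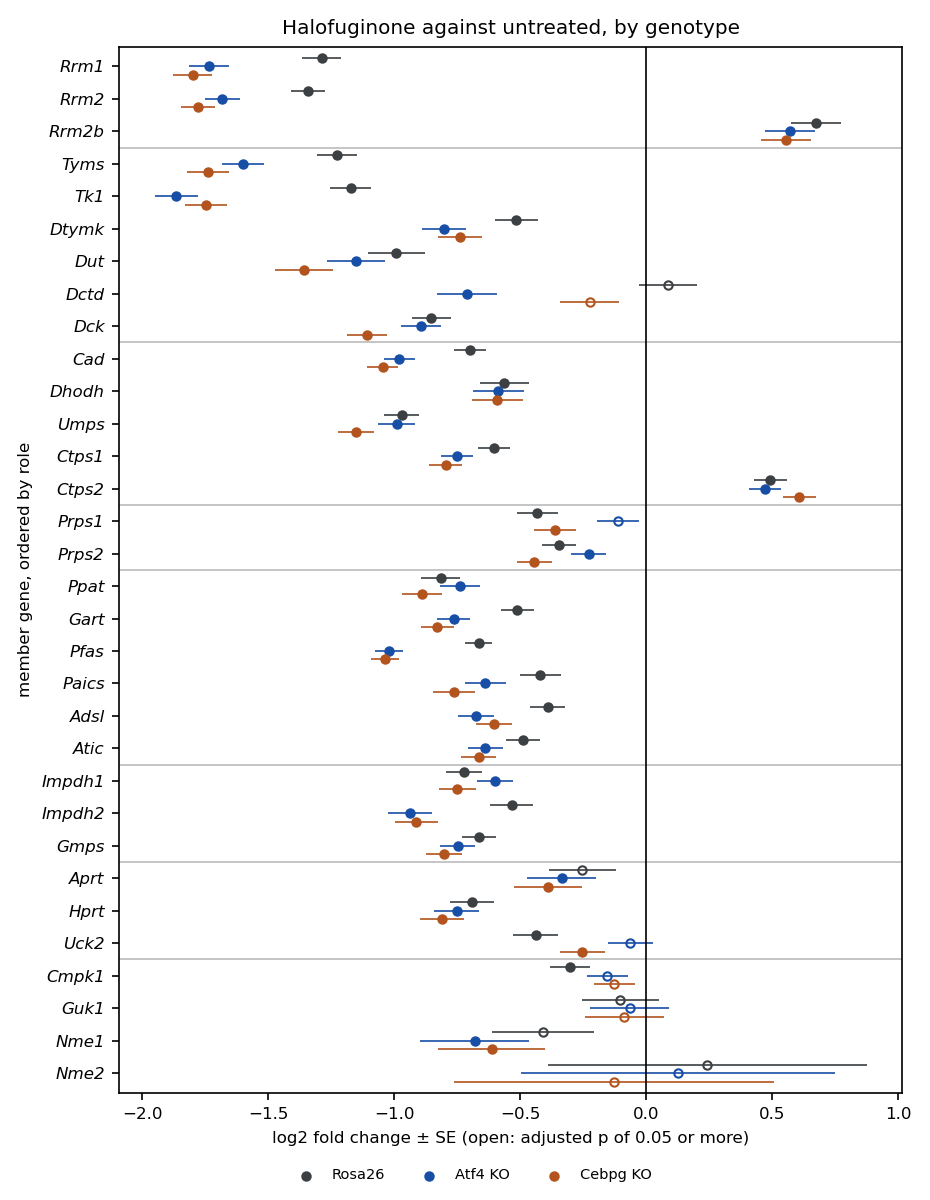
Log2 fold change of halofuginone against untreated cells (± SE from the fit of 18 libraries) for the 32 members in each genotype, filled where the adjusted p was under 0.05. Rrm2b and Ctps2 lie right of 0 in all 3 genotypes, 25, 25 and 26 members have filled points left of it in Rosa26, Atf4 knockout and Cebpg knockout cells, and for Rrm1, Rrm2, Tyms and Tk1 the knockouts lie further left than Rosa26.

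The genes of pyrimidine synthesis up to UMP all fell in each genotype. Cad, which catalyses the opening steps, held 473, 478 and 473 CPM in Rosa26, 364, 399.9 and 389 in Atf4 knockout and 432, 456 and 456 in Cebpg knockout cells without the drug. Cad with the drug held 288, 313 and 275 CPM in Rosa26, 193, 182 and 210.0 in Atf4 knockout and 217, 210.4 and 223 in Cebpg knockout cells. Treated libraries lay below untreated ones in each genotype, and the log2 changes were -0.70, -0.98 and -1.05. Umps, which makes UMP at the end of the route, held 143, 156 and 143 CPM in Rosa26, 98.1, 102 and 94.6 in Atf4 knockout and 120.0, 123 and 117 in Cebpg knockout cells without the drug. Umps with the drug held 74.1, 80.9 and 70.7 CPM in Rosa26, 50.1, 45.2 and 53.1 in Atf4 knockout and 52.6, 51.0 and 58.6 in Cebpg knockout cells. Every treated library lay below every untreated one. Umps fell, with log2 changes of -0.97 ± 0.0699 in Rosa26, -0.99 ± 0.0719 in Atf4 knockout and -1.15 ± 0.0716 in Cebpg knockout cells. Dhodh, the mitochondrial dehydrogenase between them, had means that moved from 46.8 ± 1.81 to 31.7 ± 2.64 CPM in Rosa26, from 35.6 ± 2.94 to 23.7 ± 3.05 in Atf4 knockout and from 40.0 ± 1.45 to 26.6 ± 3.42 in Cebpg knockout cells, and fell past the threshold in each genotype.

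CTP synthases turn UTP into CTP, and Ctps1 is the form that T and B cells are known to need for expansion. Ctps1 held 117, 123 and 111 CPM in Rosa26, 92.7, 96.5 and 97.1 in Atf4 knockout and 102, 105 and 98.0 in Cebpg knockout cells without the drug. With it Ctps1 held 73.2, 83.8 and 74.0 CPM in Rosa26, 59.1, 54.9 and 56.0 in Atf4 knockout and 61.5, 58.1 and 55.9 in Cebpg knockout cells. Ctps1 was lower in every treated library than in any untreated library of its genotype, with log2 changes of -0.60, -0.75 and -0.80. Its paralog Ctps2 held 43.5, 45.9 and 45.1 CPM in Rosa26, 55.6, 54.4 and 54.7 in Atf4 knockout and 50.1, 48.4 and 46.8 in Cebpg knockout cells without the drug. Ctps2 with halofuginone held 61.6, 69.1 and 58.6 CPM in Rosa26, 76.2, 74.6 and 77.3 in Atf4 knockout and 71.0, 71.5 and 78.9 in Cebpg knockout cells. Here the treated libraries were the higher ones, again without overlap. Ctps2 rose by 0.49 ± 0.0652 (adjusted p = 3.2e-06), 0.47 ± 0.0645 (adjusted p = 4.4e-06) and 0.61 ± 0.0650 (adjusted p = 1.5e-07) in Rosa26, Atf4 knockout and Cebpg knockout cells. Per kb of exon Ctps2 was 27.0 ± 1.36% of Ctps1 in untreated Rosa26 cells and 57.6 ± 1.81% with the drug. It reached 94.3 ± 3.36% in treated Atf4 knockout cells (from 40.4 ± 1.51%) and 88.9 ± 9.29% in treated Cebpg knockout cells (from 33.4 ± 1.16%). In CPM, without exon length, mean Ctps2 was above Ctps1 there, at 76.0 against 56.7 in treated Atf4 and 73.8 against 58.5 in treated Cebpg knockout cells. Which of the 2 mRNAs was the more abundant in treated knockouts thus depends on the lengths used.

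**Figure D4:**
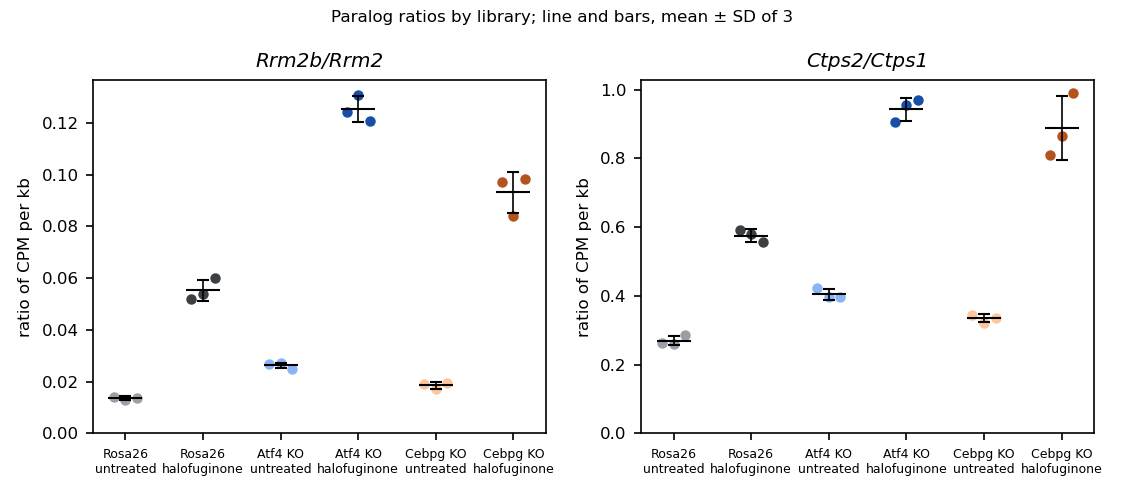
Ratio of levels per kb of exon for Rrm2b over Rrm2 (left) and Ctps2 over Ctps1 (right) by library (points), with the mean and SD of 3 (line and bars) in the 6 groups. Both ratios are higher with halofuginone in each genotype and highest in treated knockouts, where Ctps2 comes to 94.3 ± 3.36% and 88.9 ± 9.29% of Ctps1. In CPM, without exon length, Ctps2 lies above Ctps1 in treated knockouts.

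PRPP synthetases supply the activated ribose for both routes and for salvage, and they changed less. Prps1 held 106, 98.4 and 107 CPM in Rosa26, 73.6, 73.2 and 76.7 in Atf4 knockout and 79.4, 89.5 and 84.5 in Cebpg knockout cells without the drug. With the drug Prps1 held 77.0, 80.2 and 74.0 CPM in Rosa26, 64.4, 61.7 and 80.5 in Atf4 knockout and 60.8, 69.3 and 67.3 in Cebpg knockout cells. Treated and untreated libraries overlapped in the Atf4 knockout through treated library 3, which stands apart. Prps1 fell in Rosa26, at -0.43 ± 0.0820 (adjusted p = 1.9e-04), and in Cebpg knockout cells, at -0.36 ± 0.0832 (adjusted p = 0.00111). In Atf4 knockout cells it stood at -0.11 ± 0.0832 (adjusted p = 0.282). The change in the Atf4 knockout passed the threshold without treated Atf4 knockout library 3 (adjusted p = 0.0185). Prps2 held 121, 116 and 123 CPM in Rosa26, 90.5, 91.4 and 92.7 in Atf4 knockout and 102, 105 and 99.7 in Cebpg knockout cells without the drug. Prps2 with the drug held 90.5, 103 and 90.0 CPM in Rosa26, 73.6, 74.1 and 86.5 in Atf4 knockout and 71.4, 73.6 and 79.9 in Cebpg knockout cells. Treated libraries were lower in each genotype, without overlap. Prps2 fell in the 3 genotypes, with log2 changes of -0.35, -0.23 and -0.45, in the Atf4 knockout not past the threshold without treated Atf4 knockout library 1 (adjusted p = 0.0540).

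All 6 genes of purine synthesis up to IMP fell in each genotype, with medians of -0.50 in Rosa26, -0.71 in Atf4 knockout and -0.80 in Cebpg knockout cells. Ppat, the committing amidotransferase, held 194, 187 and 186 CPM in Rosa26, 140.2, 142 and 146 in Atf4 knockout and 154, 160.3 and 158 in Cebpg knockout cells without the drug. Ppat with the drug held 103, 116 and 104 CPM in Rosa26, 82.1, 79.0 and 95.2 in Atf4 knockout and 79.1, 79.5 and 96.8 in Cebpg knockout cells. Of the 6 it fell most in Rosa26, at -0.82 ± 0.0767 (adjusted p = 3.3e-08). Pfas, which adds a glutamine nitrogen to the ring precursor, held 155, 156 and 163 CPM in Rosa26, 139.6, 129 and 135 in Atf4 knockout and 159, 161 and 165 in Cebpg knockout cells without the drug. With the drug Pfas held 103, 98.1 and 98.2 CPM in Rosa26, 64.4, 71.2 and 63.5 in Atf4 knockout and 79.9, 78.8 and 77.9 in Cebpg knockout cells. The treated libraries fell into 3 separate ranges, Rosa26 above Cebpg knockout above Atf4 knockout. Pfas fell with log2 changes of -0.66 ± 0.0536, -1.02 ± 0.0548 and -1.04 ± 0.0544 in Rosa26, Atf4 knockout and Cebpg knockout cells.

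Gart, which carries 3 activities of the route, held 355, 376 and 363 CPM in Rosa26, 279, 293 and 293 in Atf4 knockout and 318, 321 and 339 in Cebpg knockout cells without the drug. Gart with the drug held 244, 282 and 240.5 CPM in Rosa26, 168, 160.2 and 181 in Atf4 knockout and 176, 178 and 196 in Cebpg knockout cells. Its log2 changes were -0.51, -0.76 and -0.83. Adsl, the lyase used on the way to IMP and again on the way to AMP, changed least of the 6 in Rosa26. Adsl held 189, 202 and 174.4 CPM in Rosa26, 149.7, 161 and 160.3 in Atf4 knockout and 165, 167 and 164 in Cebpg knockout cells without the drug. Adsl with the drug held 135, 159 and 137 CPM in Rosa26, 97.0, 94.5 and 103 in Atf4 knockout and 107, 102 and 117 in Cebpg knockout cells. Its log2 changes were -0.39, -0.68 and -0.60. Paics, the neighbour of Ppat shown above, had means that moved from 304 ± 10.03 to 227 ± 16.1 CPM in Rosa26, from 241 ± 2.84 to 155 ± 24.9 in Atf4 knockout and from 274 ± 5.25 to 162 ± 8.39 in Cebpg knockout cells. Atic, which closes the purine ring, had means that moved from 293 ± 11.8 to 209 ± 20.3 CPM in Rosa26, from 244 ± 1.69 to 157 ± 13.1 in Atf4 knockout and from 259.9 ± 4.90 to 164 ± 9.14 in Cebpg knockout cells. For each of the 6 genes treated libraries lay below untreated ones in every genotype. Ppat and Paics overlap on opposite strands, Gart overlaps the antisense gene Gm15964 and Adsl the pseudogene Gm6612, so reads in the shared stretches are uncertain.

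The 3 enzymes from IMP to GMP fell in each genotype too. Impdh1 held 166, 176 and 172 CPM in Rosa26, 137, 137 and 133 in Atf4 knockout and 145, 148 and 149 in Cebpg knockout cells without the drug. Impdh1 with the drug held 96.4, 115 and 100.4 CPM in Rosa26, 90.2, 79.4 and 99.0 in Atf4 knockout and 89.6, 82.9 and 90.0 in Cebpg knockout cells. Its log2 changes were -0.72, -0.60 and -0.75, with 95% intervals of -0.08 to 0.32 and -0.23 to 0.17 for the differences of the knockouts from Rosa26. Impdh2, the form induced when lymphocytes proliferate, held 401, 436 and 410.0 CPM in Rosa26, 327, 332 and 318 in Atf4 knockout and 336, 354 and 366 in Cebpg knockout cells without the drug. With halofuginone Impdh2 held 265, 334 and 261 CPM in Rosa26, 173, 153 and 183 in Atf4 knockout and 183, 173 and 205 in Cebpg knockout cells. For both genes treated libraries lay below untreated ones in each genotype. Impdh2 changed by -0.53 in Rosa26, -0.94 in Atf4 knockout and -0.91 in Cebpg knockout cells. Per kb of exon Impdh1 was 38.5 ± 0.824% of Impdh2 in untreated and 33.98 ± 1.89% in treated Rosa26 cells, and 39.0 ± 0.326% and 49.2 ± 1.11% in Atf4 knockout cells. Gmps, which aminates XMP, had means that moved from 169.6 ± 7.54 to 107 ± 9.97 CPM in Rosa26, from 145 ± 0.737 to 86.5 ± 4.78 in Atf4 knockout and from 156 ± 5.57 to 89.5 ± 7.19 in Cebpg knockout cells. Impdh2 overlaps Ndufaf3 on the opposite strand.

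Salvage of bases changed unevenly. Hprt, which recycles hypoxanthine and guanine, had the highest level per kb of exon of the 32 members in untreated Rosa26 cells, 205 ± 11.2 CPM per kb. Hprt held 256, 280.3 and 255 CPM in Rosa26, 197, 201 and 191 in Atf4 knockout and 225, 206 and 211 in Cebpg knockout cells without the drug. With it Hprt held 158, 180.3 and 151 CPM in Rosa26, 109.9, 103 and 136 in Atf4 knockout and 114, 120.0 and 133 in Cebpg knockout cells. Treated libraries were lower in each genotype without overlap, and the log2 changes were -0.69 ± 0.0869, -0.75 ± 0.0880 and -0.81 ± 0.0879. Aprt, which recycles adenine, held 116, 120.3 and 113 CPM in Rosa26, 88.6, 91.6 and 87.1 in Atf4 knockout and 98.7, 88.9 and 91.0 in Cebpg knockout cells without the drug. Aprt with the drug held 95.9, 116 and 81.3 CPM in Rosa26, 63.0, 59.8 and 88.8 in Atf4 knockout and 64.9, 66.0 and 82.1 in Cebpg knockout cells. In Rosa26 and in the Atf4 knockout its treated and untreated libraries overlapped through the library that stands apart. Aprt changed by -0.25 ± 0.133 (adjusted p = 0.130) in Rosa26. It fell in Atf4 knockout cells, at -0.34 ± 0.136 (adjusted p = 0.0491), and in Cebpg knockout cells, at -0.39 ± 0.136 (adjusted p = 0.0237). In Rosa26 it passed without treated Rosa26 library 2 (adjusted p = 0.00923). The call in the Atf4 knockout was lost without untreated Atf4 knockout library 1, 2 or 3 or treated Atf4 knockout library 1 or 2 (adjusted p from 0.0768 to 0.204), with RLE scaling (adjusted p = 0.0538) and in its 2 groups alone (adjusted p = 0.0554). The call in the Cebpg knockout was lost without untreated Cebpg knockout library 1 or treated Cebpg knockout library 1 or 2 (adjusted p from 0.0664 to 0.0953).

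Uck2, a kinase of uridine and cytidine, had means that moved from 337 ± 3.54 to 249 ± 21.2 CPM in Rosa26, from 266 ± 8.25 to 255 ± 45.3 in Atf4 knockout and from 279 ± 6.57 to 234 ± 12.6 in Cebpg knockout cells. It fell in Rosa26, at -0.44, and in Cebpg knockout cells, at -0.25, and stood at -0.06 ± 0.0891 (adjusted p = 0.589) in Atf4 knockout cells. The fall in Cebpg knockout cells was not past the threshold with upper-quartile scaling (adjusted p = 0.0552) or without untreated Cebpg knockout library 1 or 3 or treated Cebpg knockout library 1 (adjusted p from 0.0532 to 0.0910), and the change in Atf4 knockout cells was past it without treated Atf4 knockout library 3 (adjusted p = 0.0253). Uck2 overlaps the non-coding gene Gm2453 on the opposite strand.

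The 4 nucleotide kinases at the end of the routes had the role median nearest 0 in each genotype, at -0.20, -0.11 and -0.13 in Rosa26, Atf4 knockout and Cebpg knockout cells, although Nme1 changed by more. Cmpk1, which phosphorylates UMP and CMP, held 129.5, 121 and 124 CPM in Rosa26, 105, 107 and 99.9 in Atf4 knockout and 101, 98.4 and 96.4 in Cebpg knockout cells without the drug. Cmpk1 with the drug held 98.0, 110.3 and 95.3 CPM in Rosa26, 90.3, 81.8 and 107 in Atf4 knockout and 84.4, 90.9 and 96.2 in Cebpg knockout cells. Groups overlapped in the Atf4 knockout through library 3. It fell in Rosa26, at -0.30 ± 0.0802 (adjusted p = 0.00391), and its changes of -0.16 and -0.13 in the knockouts did not pass the test. In the Atf4 knockout it passed without treated Atf4 knockout library 3 (adjusted p = 0.00458). Guk1, the GMP kinase, held 48.2, 52.9 and 46.9 CPM in Rosa26, 41.3, 37.7 and 35.3 in Atf4 knockout and 42.5, 36.7 and 38.4 in Cebpg knockout cells without the drug. Guk1 with the drug held 43.1, 54.5 and 40.3 CPM in Rosa26, 33.7, 29.7 and 45.8 in Atf4 knockout and 28.7, 41.0 and 41.5 in Cebpg knockout cells. Its libraries overlapped in each genotype and its 95% intervals were -0.40 to 0.19, -0.37 to 0.24 and -0.40 to 0.22.

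Nme1, a nucleoside diphosphate kinase, held 30.1, 39.5 and 29.3 CPM in Rosa26, 28.3, 23.4 and 21.4 in Atf4 knockout and 30.1, 27.0 and 28.1 in Cebpg knockout cells without the drug. Nme1 with the drug held 21.0, 31.2 and 22.5 CPM in Rosa26, 11.5, 11.98 and 22.0 in Atf4 knockout and 16.5, 20.5 and 18.8 in Cebpg knockout cells. Treated and untreated libraries overlapped in Rosa26 and Atf4 knockout cells but not in Cebpg knockout cells. Nme1 changed by -0.41 ± 0.204 (adjusted p = 0.111) in Rosa26 and fell in both knockouts, at -0.68 ± 0.216 (adjusted p = 0.0148) in Atf4 knockout and -0.61 ± 0.211 (adjusted p = 0.0229) in Cebpg knockout cells. In Rosa26 it passed without treated Rosa26 library 2 (adjusted p = 0.0217), and in the knockouts it did not without untreated Atf4 knockout library 1 or treated Atf4 knockout library 1 or 2 (adjusted p from 0.0669 to 0.0749), or without untreated Cebpg knockout library 1 or treated Cebpg knockout library 1 or 3 (adjusted p from 0.0520 to 0.0905). Nme2, its neighbour and paralog, held 0.360, 0.598 and 0.842 CPM in Rosa26, 0.801, 0.231 and 1.19 in Atf4 knockout and 0.736, 0.748 and 0.675 in Cebpg knockout cells without the drug. Nme2 with the drug held 0.823, 0.559 and 0.747 CPM in Rosa26, 1.47, 0.811 and 0.119 in Atf4 knockout and 1.04, 0.412 and 0.486 in Cebpg knockout cells. Libraries of Nme2 overlapped throughout, and it passed no test. Both genes lie under a longer annotated gene, Gm20390, on the same strand. No label says how reads in that overlap were counted, so the levels of Nme1 and Nme2 are uncertain.

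Per kb of exon, levels in untreated Rosa26 cells ran from Hprt at 205 ± 11.2 CPM per kb through Rrm2 (168 ± 6.93), Impdh2 (135 ± 5.96), Dut (113 ± 3.996) and Paics (97.0 ± 3.20), each above the next by more than their SDs. Aprt (72.0 ± 2.26) and Gart (70.9 ± 2.11) did not differ beyond their spread, nor did Prps1 (52.2 ± 2.45) and Impdh1 (52.0 ± 1.39). At the low end stood Nme1 (9.87 ± 1.69) and Ctps2 (9.50 ± 0.253), then Dhodh (7.40 ± 0.286) and Dctd (6.47 ± 0.987), pairs within their spread, then Rrm2b (2.28 ± 0.0304) and Nme2 (0.512 ± 0.206). Lengths are the union of annotated exons, so an exon that is seldom used lowers a level and a ratio between genes.

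Most members were lower in Atf4 knockout cells without any drug. Of 32 members 26 were lower and 2 higher in untreated Atf4 knockout than in untreated Rosa26 cells, where 14.3% of all genes were lower and 11.7% higher. The median of the members was -0.35 and that of all genes 0.02. Dut was lowest at -0.71 ± 0.113 (adjusted p = 1.8e-04), before Rrm2 at -0.62 ± 0.0664 (adjusted p = 2.3e-06), Rrm1 at -0.60 ± 0.0752 (adjusted p = 1.2e-05) and Umps at -0.58 ± 0.0693 (adjusted p = 6.7e-06). Tk1 (-0.54), Tyms (-0.53), Dck (-0.50) and Prps1 (-0.48) came next. All 6 genes of purine synthesis were lower, from -0.41 for Ppat to -0.23 for Pfas, which was not past the threshold with upper-quartile scaling (-0.16, adjusted p = 0.0729). Lower too were all 3 genes from IMP to GMP (Gmps not with upper-quartile scaling, adjusted p = 0.05003) and all 3 salvage genes. The same paralogs that rose with the drug were higher, Ctps2 at 0.29 ± 0.0657 (adjusted p = 0.00289) and Rrm2b at 0.33 ± 0.101 (adjusted p = 0.0215). Untreated Atf4 knockout libraries did not overlap untreated Rosa26 libraries for any of the genes named here. These genes were named because they passed the test in this comparison, so the separation is no further evidence. Its share over all genes was not counted. Library values stand above by role, except for Paics, Atic, Gmps and Uck2, given there as means. The lowest untreated Rosa26 library held 295, 279.8, 162 and 334 CPM of these 4. The highest untreated Atf4 knockout library held 244, 246, 146 and 271 CPM.

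The remaining 4 members, Dctd (0.21), Guk1 (-0.37), Nme1 (-0.43) and Nme2 (0.28), did not pass in the untreated Atf4 knockout. For Guk1 and Nme1 the means were lower in the knockout, for Dctd and Nme2 higher. Several smaller differences rested on single libraries. Rrm2b was not past the threshold without untreated Rosa26 library 2 or 3 or untreated Atf4 knockout library 1 or 2 (adjusted p from 0.0555 to 0.0836), and Aprt without untreated Rosa26 library 1, 2 or 3 or untreated Atf4 knockout library 1, 2 or 3 (adjusted p from 0.0715 to 0.121). Gmps was not past it without untreated Rosa26 library 2 or 3 or untreated Atf4 knockout library 1, 2 or 3 (adjusted p from 0.0559 to 0.0997), and Dtymk without untreated Rosa26 library 1 or 2 or untreated Atf4 knockout library 3 (adjusted p from 0.0553 to 0.0901). Cmpk1 was lost without untreated Rosa26 library 1 or untreated Atf4 knockout library 3 (adjusted p from 0.0762 to 0.0798), and Adsl without untreated Rosa26 library 2 (adjusted p = 0.0639). Dctd passed without untreated Rosa26 library 1 (adjusted p = 0.0486). All 16 proliferation genes were lower in the untreated Atf4 knockout as well, with sums of 5689 to 5793 CPM against 7849 to 8033 CPM. Their part, and that of the Malat1 difference given above, was not tested. Of all genes called here 44.9% were higher, and 57.6% with upper-quartile scaling.

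Few members passed the test between untreated Cebpg knockout and Rosa26 cells. Of 32 members 6 were lower and 0 higher, where 2.29% of all genes were lower and 2.71% higher. At an unadjusted p under 0.05 edgeR gave 23 lower and 0 higher, and DESeq2 with adjustment 22 and 0. The 6 were Cmpk1 at -0.34 ± 0.0804 (adjusted p = 0.0206), Prps1 at -0.30 ± 0.0818 (adjusted p = 0.0390), Hprt at -0.30 ± 0.0864 (adjusted p = 0.0497), Rrm2 at -0.30 ± 0.0661 (adjusted p = 0.0142), Umps at -0.30 ± 0.0688 (adjusted p = 0.0180) and Rrm1 at -0.26 ± 0.0749 (adjusted p = 0.0496). The median of the members was -0.22 and that of all genes 0.01. Dut, at -0.38, had the lowest value of all members but did not pass (adjusted p = 0.0593), and Pfas stood at 0.03 with an interval of -0.07 to 0.14.

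The count of 6 in the Cebpg knockout depended on each library. It was 2, 0 and 2 without untreated Rosa26 library 1, 2 or 3 and 0, 0 and 1 without untreated Cebpg knockout library 1, 2 or 3. It was 24 in a fit of the 2 groups alone and 19 with the scaling of DESeq2 (RLE). Over all genes, 1134 were lower with RLE, against 337 with TMM, so the larger count of members came with more calls among all genes. Calls over all genes were not counted in the fit of the 2 groups alone. Among all genes called, 54.1% were higher with TMM and 26.2% with RLE. Of the 16 proliferation genes 4 were lower, with sums of 6688 to 6898 CPM, and their part was not tested.

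With halofuginone most members were lower in both knockouts than in Rosa26. In treated Atf4 knockout cells 25 of 32 members were lower and 1 higher than in treated Rosa26 cells, where 16.3% of all genes were lower and 11.8% higher, with a median of -0.51 for the members and 0.00 for all genes. In treated Cebpg knockout cells 22 were lower and 1 higher, where 13.1% of all genes were lower and 5.74% higher, with medians of -0.40 and -0.02. Both comparisons share the treated Rosa26 libraries. The gene that was higher in both was Ctps2, at 0.27 ± 0.0640 (adjusted p = 0.00314) in the Atf4 and 0.23 ± 0.0641 (adjusted p = 0.0175) in the Cebpg knockout, the latter not past the threshold without treated Rosa26 library 1 or 3 or treated Cebpg knockout library 3 (adjusted p from 0.0599 to 0.0818). Without the 3 libraries that stand apart, 28 were lower and 2 higher in the Atf4 knockout (Rrm2b added, at 0.28) and 24 lower and 1 higher in the Cebpg knockout.

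**Figure D5:**
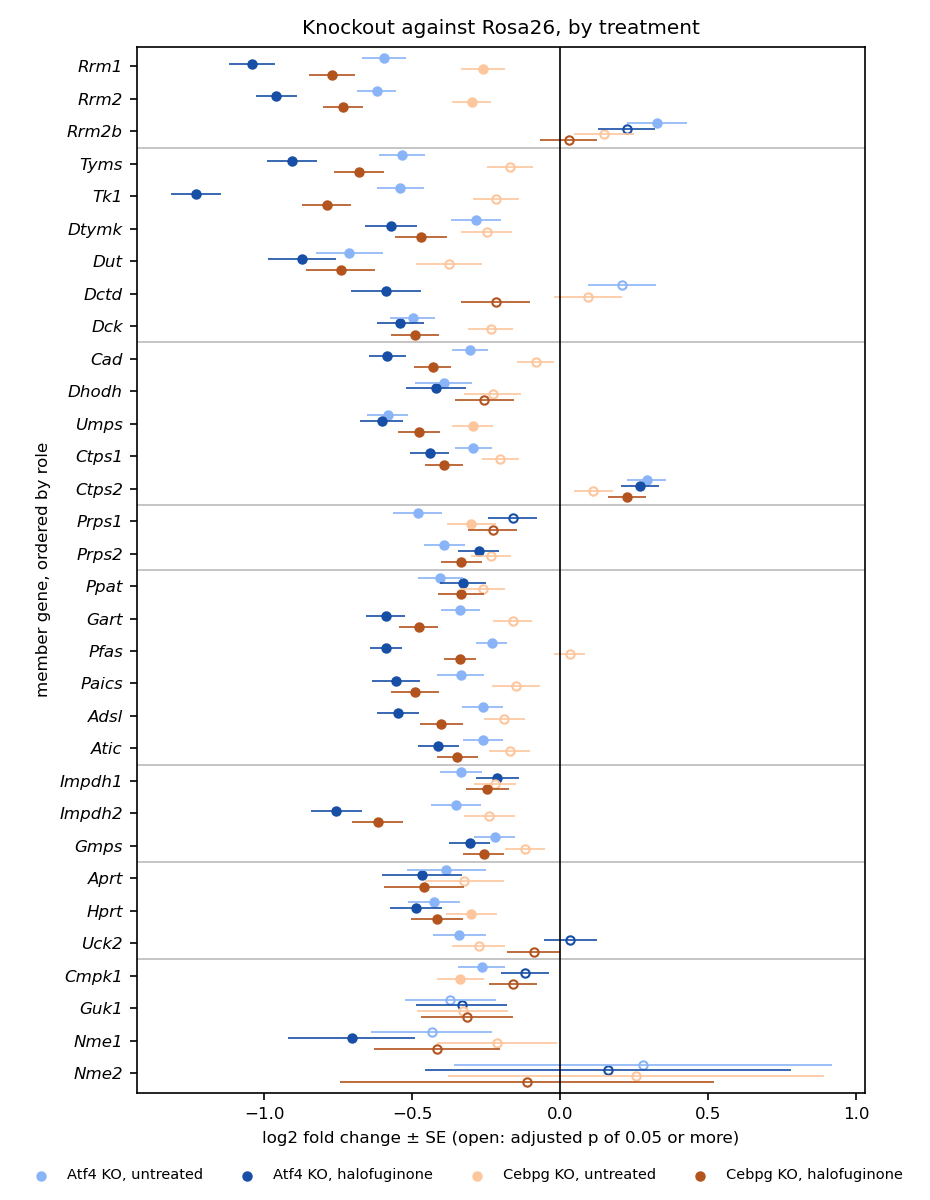
Log2 fold change of each knockout against Rosa26 (± SE from the fit of 18 libraries) for the 32 members, in untreated cells (pale) and with halofuginone (dark), filled where the adjusted p was under 0.05. Points lie left of 0 for most members, furthest for Tk1 at -1.23 and Rrm1 at -1.04 in the treated Atf4 knockout, and Ctps2 lies right of 0.

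Tk1 was lower in both treated knockouts, at -1.23 ± 0.0851 (adjusted p = 3.1e-09) in the Atf4 and -0.79 ± 0.0835 (adjusted p = 2.0e-06) in the Cebpg knockout. Rrm1 differed by -1.04 and -0.77, Rrm2 by -0.96 and -0.73, Tyms by -0.91 and -0.68, and Dut by -0.87 and -0.74. These 5 genes of deoxynucleotide supply had the largest differences of the 32 in both. Impdh2 was lower, at -0.76 ± 0.0867 and -0.62 ± 0.0865, and Impdh1 also, at -0.21 ± 0.0726 and -0.25 ± 0.0727. All 6 purine genes up to IMP were lower in both treated knockouts, with Pfas at -0.59 and -0.34 and Gart at -0.59 and -0.48. Dctd was lower in the treated Atf4 knockout, at -0.59 ± 0.118 (adjusted p = 7.5e-04), and stood at -0.22 ± 0.116 (adjusted p = 0.209) in the Cebpg knockout.

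Members that did not pass in either treated knockout were Rrm2b (0.22 and 0.03), Prps1 (-0.16 and -0.23), Uck2 (0.03 and -0.09), Cmpk1 (-0.12 and -0.16), Guk1 (-0.33 and -0.31) and Nme2. Nme1 was lower in the Atf4 knockout, at -0.71 ± 0.215 (adjusted p = 0.0210), and stood at -0.42 ± 0.212 (adjusted p = 0.193) in the Cebpg knockout. Dhodh was lower in the Atf4 knockout, at -0.42 ± 0.102 (adjusted p = 0.00367), and stood at -0.26 ± 0.101 (adjusted p = 0.0857) in the Cebpg knockout. In the Atf4 knockout Prps1 passed without treated Atf4 knockout library 3 (adjusted p = 0.00393), Cmpk1 without treated Atf4 knockout library 3 (adjusted p = 0.0152) and Guk1 without treated Atf4 knockout library 3 (adjusted p = 0.00764). In the Cebpg knockout Dhodh passed without treated Cebpg knockout library 3 (adjusted p = 0.0160) and Prps1 without treated Cebpg knockout library 2 (adjusted p = 0.0460).

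Weaker calls in the treated knockouts were lost with single libraries. In the Atf4 knockout Impdh1 was not past the threshold without treated Rosa26 library 2 or treated Atf4 knockout library 1 or 2 (adjusted p from 0.0712 to 0.194), Nme1 without treated Rosa26 library 2 or treated Atf4 knockout library 1 or 2 (adjusted p from 0.0815 to 0.103) and Aprt without treated Atf4 knockout library 1 or 2 (adjusted p from 0.0742 to 0.0810). In the Cebpg knockout Impdh1 was not past it without treated Rosa26 library 2 or treated Cebpg knockout library 2 (adjusted p from 0.0750 to 0.0950), Gmps without treated Rosa26 library 2 or treated Cebpg knockout library 1 (adjusted p from 0.0761 to 0.0973) and Aprt without treated Rosa26 library 2 or treated Cebpg knockout library 1 or 2 (adjusted p from 0.0667 to 0.111). In fits of the compared groups alone these calls were lost as well, with adjusted p from 0.0555 to 0.202, and so was Prps2 in the Atf4 knockout (adjusted p = 0.0625). All 16 proliferation genes were lower in both treated knockouts, with sums of 2286 to 2744 and 2685 to 2876 CPM against 3844 to 4283 CPM in treated Rosa26, and their part was not tested. Of all genes called, 41.9% were higher in the Atf4 and 30.4% in the Cebpg comparison, and 52.2% and 50.7% with upper-quartile scaling.

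Between the 2 treated knockouts few members differed. None was lower and 2 were higher in the Cebpg than in the Atf4 knockout, where 0.463% of all genes were lower and 0.538% higher. At an unadjusted p under 0.05 edgeR gave 0 lower and 7 higher, and DESeq2 with adjustment 0 and 5. The 2 were Tk1, at 0.44 ± 0.0871 (adjusted p = 0.0159), and Pfas, at 0.25 ± 0.0552 (adjusted p = 0.0325). Tk1 libraries did not overlap between the treated knockouts, at 38.0, 41.6 and 41.7 CPM against 26.7, 27.7 and 34.8 CPM. Tk1 was not past the threshold without treated Atf4 knockout library 1 or treated Cebpg knockout library 1 or 3 (adjusted p from 0.0504 to 0.110), and Pfas without treated Atf4 knockout library 1 or 3 or treated Cebpg knockout library 1, 2 or 3 (adjusted p from 0.0610 to 0.148). Neither passed in a fit of the 2 groups alone (adjusted p of 0.357 and 0.456). Without treated Atf4 knockout library 3 the count was 5, and without the 3 libraries that stand apart it was 8, with Rrm1 at 0.31, Rrm2 at 0.19, Dut at 0.26, Dctd at 0.44, Cad at 0.18 and Nme1 at 0.63. Calls over all genes were not counted in these fits.

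Whether the drug effect itself differed between genotypes was tested with an interaction term, the log2 effect in the knockout minus that in Rosa26. In the Atf4 knockout 5 members had a negative and 0 a positive interaction, where 4.01% of all genes had a negative and 2.41% a positive one. At an unadjusted p under 0.05 edgeR gave 11 and 2, and DESeq2 with adjustment 8 and 2. Dctd had the largest, -0.80 ± 0.165 (adjusted p = 0.00550), with an effect of 0.09 in Rosa26 and -0.71 in the knockout. Tk1 followed at -0.69 ± 0.115 (adjusted p = 0.00115), then Rrm1 at -0.45 ± 0.107 (adjusted p = 0.0151), Pfas at -0.36 ± 0.0763 (adjusted p = 0.00700) and Rrm2 at -0.34 ± 0.0949 (adjusted p = 0.0364). Dctd alone of these 5 did not pass as a fall in Rosa26, and the other 4 fell in both genotypes, further in the knockout. Rrm2 was not past the threshold without untreated Rosa26 library 1 or 3, treated Rosa26 library 2, untreated Atf4 knockout library 1, 2 or 3 or treated Atf4 knockout library 1 or 2 (adjusted p from 0.0589 to 0.0930), or in the 4 groups alone (adjusted p = 0.0653).

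Members just short of the threshold in the Atf4 interaction were Impdh2 at -0.40 ± 0.122 (adjusted p = 0.0533), Tyms at -0.37 ± 0.115 (adjusted p = 0.0606) and Cad at -0.28 ± 0.0877 (adjusted p = 0.0644). Positive values that missed it were those of Uck2, at 0.38 ± 0.126 (adjusted p = 0.0861), and Prps1, at 0.32 ± 0.117 (adjusted p = 0.115). Without treated Rosa26 library 3 the count of negative interactions was 8, and without treated Atf4 knockout library 3 it was 9. Positive ones numbered 2 without treated Rosa26 library 2 or treated Atf4 knockout library 2 and 1 without treated Atf4 knockout library 3. Without the 3 libraries that stand apart 13 were negative and 1 (Uck2, at 0.30) positive, with Dctd at -0.76, Tk1 at -0.76 and Rrm1 at -0.44. The share of all genes with an interaction in that fit was not counted. Of the 16 proliferation genes 7 had a negative and 0 a positive interaction, and their part was not tested.

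In the Cebpg knockout 6 members had a negative and 0 a positive interaction, where 2.1% of all genes had a negative and 0.374% a positive one. At an unadjusted p under 0.05 edgeR gave 13 and 0, and DESeq2 with adjustment 7 and 0. They were Tk1 at -0.57 ± 0.114 (adjusted p = 0.00837), Rrm1 at -0.51 ± 0.107 (adjusted p = 0.0117), Tyms at -0.51 ± 0.114 (adjusted p = 0.0182), Rrm2 at -0.43 ± 0.0947 (adjusted p = 0.0155), Pfas at -0.37 ± 0.0759 (adjusted p = 0.0101) and Cad at -0.35 ± 0.0877 (adjusted p = 0.0398). The reductase pair and the thymidylate enzymes Tyms and Tk1 thus fell more in Cebpg knockout than in Rosa26 cells. Dctd stood at -0.31 ± 0.164 (adjusted p = 0.433) here, with an interval of -0.63 to 0.01. Both interactions share the Rosa26 libraries, so they are not independent of each other.

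Of the 6 interactions in the Cebpg knockout, Cad was not past the threshold without untreated Rosa26 library 1, 2 or 3, treated Rosa26 library 1 or 2, untreated Cebpg knockout library 2 or 3 or treated Cebpg knockout library 1 or 2 (adjusted p from 0.0643 to 0.105). Rrm2 was not without untreated Rosa26 library 1 or 3 or untreated Cebpg knockout library 3 (adjusted p from 0.0504 to 0.0527), Tyms not without untreated Rosa26 library 3, untreated Cebpg knockout library 1 or treated Cebpg knockout library 1 (adjusted p from 0.0542 to 0.0599) and Pfas not without treated Cebpg knockout library 2 (adjusted p = 0.0920) or with upper-quartile scaling (adjusted p = 0.0541). The count fell to 3 without untreated Rosa26 library 3 and rose to 10 without the 3 libraries that stand apart, with Dut (-0.29), Gart (-0.29), Paics (-0.32) and Impdh2 (-0.32) added. Interactions over all genes were not counted in these fits. Of the proliferation genes 6 had a negative and 0 a positive interaction, and their part was not tested. Among all genes called, 37.5% were positive in the Atf4 and 15.2% in the Cebpg interaction, and 59% and 40.7% with RLE scaling.

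Outside the group, genes of the same pathways fell with halofuginone in a larger share than all genes, and rose in no larger share. Of 53 such genes listed, 40 were measured, and with halofuginone 14 fell and 7 rose in Rosa26, 15 and 8 in Atf4 knockout and 15 and 9 in Cebpg knockout cells. In Rosa26 these are 35.0% lower and 17.5% higher, beside 24.1% and 23.6% of all genes. In the Atf4 knockout 37.5% fell, beside 26.5% of all genes, and in the Cebpg knockout 37.5%, beside 28%. The shares that rose in the knockouts were not above the 23.1% of all genes that rose in each. These differences in share were not tested. Samhd1, which breaks down deoxynucleotides, stood at 316, 355 and 343 CPM in untreated and 1138, 943 and 932 CPM in treated Rosa26 libraries. Samhd1 rose by 1.57 ± 0.0927 in Rosa26, 1.22 ± 0.0918 in Atf4 knockout and 1.41 ± 0.0923 in Cebpg knockout cells. Nt5e, the surface enzyme CD73 that turns AMP into adenosine, stood at 19.7, 20.4 and 21.8 CPM in untreated and 67.9, 76.4 and 70.9 CPM in treated Rosa26 libraries. Nt5e rose by 1.80, 1.19 and 1.45 in the 3 genotypes and was higher in both untreated knockouts, by 0.99 ± 0.0718 in the Atf4 and 0.55 ± 0.0728 in the Cebpg knockout. Upp1, a uridine phosphorylase, stood at 0, 0.120 and 0.112 CPM in untreated and 0.775, 1.12 and 0.436 CPM in treated Rosa26 libraries, a rise past the threshold in each genotype from levels so low that no fold change is given.

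Those that fell by at least 1 on the log2 scale in some genotype included enzymes that interconvert the same pools. Ada, adenosine deaminase, had means of 41.9 ± 2.33 CPM without and 19.9 ± 1.46 CPM with the drug in Rosa26, with changes of -1.07, -1.38 and -1.57 in Rosa26, Atf4 knockout and Cebpg knockout cells. Pnp, the purine nucleoside phosphorylase, had means of 26.7 ± 1.60 CPM without and 12.4 ± 1.62 CPM with the drug, with changes of -1.11, -0.69 and -0.92. Ak4, a mitochondrial adenylate kinase, had means of 16.1 ± 2.01 CPM without and 7.03 ± 0.762 CPM with the drug, with changes of -1.19, -0.92 and -1.55. All of these passed the test. In untreated cells 10 of the 40 (25.0%) were lower and 5 (12.5%) higher in the Atf4 knockout, beside 14.3% lower and 11.7% higher of all genes. In the untreated Cebpg knockout 1 (Ada, at -0.34) was lower and 1 (Nt5e) higher. These are 2.5% each, near the 2.29% lower and 2.71% higher of all genes. With halofuginone 9 (22.5%, beside 16.3% of all genes) were lower and 4 (10%, beside 11.8%) higher in the Atf4 knockout. In the Cebpg knockout 9 (22.5%, beside 13.1%) were lower and 2 (5%, beside 5.74%) higher.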

How the data were processed

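Poly-A RNA was sequenced from directional dUTP libraries, per the labels' protocols. The authors deposited 1 table of read counts by gene without normalization, and its values were checked to be whole numbers. The submitters' processing notes name FastQC, MultiQC, Trimmomatic, STAR, HTSeq, edgeR and build GRCm39. Their versions, settings, strand mode and annotation release are not given here. Members and lists were chosen with earlier results of these data known.

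The 18 libraries were fitted together as 6 groups with edgeR 4.0.16 (R 4.3.3), using TMM factors, filterByExpr (minimum count 10, which kept all 14695 genes) and robust quasi-likelihood F tests, with Benjamini-Hochberg adjustment over all genes in each of 10 comparisons and a threshold of 0.05. Exon lengths, overlaps and promoters came from GRCm38 annotation, matched by identifier or name. The edgeR code was tested on simulated counts for the comparison of halofuginone in Rosa26 alone. Other comparisons and steps were not tested in this way. Totals of 14190361 to 20281602 counts leave Nme2 near the detection limit, at 0.119 to 1.47 CPM.

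Per-library values are given for the members of each role group with the largest and smallest change in Rosa26, up to 12 members past the threshold in each knockout or interaction test, and the paralog pairs; other pathway genes are named where called with a log2 change of at least 1 under halofuginone, except 1 that is not reported here. Alternatives were RLE and upper-quartile scaling, no filter, a filter of 5 CPM in 3 libraries, the compared groups alone, a replicate block, DESeq2 1.42.0 and each library left out; leaving out the 3 libraries that stand apart was chosen after seeing the data.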

Additional observations from a re-analysis of the deposited data

Results flagged for a closer look

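For the genes below the effect of halofuginone differed between genotypes by the interaction term of edgeR's fit, given as the log2 effect in the knockout minus that in Rosa26. In the Atf4 knockout the differences were -0.798 for Dctd, -0.691 for Tk1, -0.447 for Rrm1, -0.356 for Pfas and -0.339 for Rrm2 among the members. Outside the group they were -0.602 for Nt5e, which rose less in the knockout than in Rosa26, and 0.607 for Ak6, which was named for this interaction after its values were seen. Ak6, an adenylate kinase gene, went from 22.2 ± 0.823 to 11.5 ± 1.85 CPM in Rosa26 and from 14.96 ± 0.951 to 11.8 ± 1.65 CPM in Atf4 knockout cells. In the Cebpg knockout the differences were -0.572 for Tk1, -0.511 for Rrm1, -0.511 for Tyms, -0.435 for Rrm2, -0.372 for Pfas and -0.347 for Cad. Both sets use the same Rosa26 libraries, so their likeness is in part shared by construction.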

How the results depend on the processing

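None of the member values that were run changed direction while called: 320 (32 members in 10 comparisons) for most alternatives, 310 with the 5 CPM filter, 313 with DESeq2, 256 without the 3 libraries and 2304 with single libraries left out. Without the filter all 320 kept their side of the threshold. Members lower in the untreated Cebpg knockout, 6 in the report, numbered 19 with RLE scaling, 10 with upper-quartile scaling, 15 with the 5 CPM filter, 24 in the compared groups alone, 22 with DESeq2 and 0 to 2 with single libraries left out. Over all genes, 337 were lower there in the report, 1134 with RLE and 432 with upper-quartile scaling. Members higher in the treated Atf4 knockout, 1 in the report, numbered 2 with RLE, with upper-quartile scaling, with the 5 CPM filter, with DESeq2 and without the 3 libraries that stand apart. Members higher in the treated Cebpg than in the treated Atf4 knockout, 2 in the report, numbered 5 with upper-quartile scaling, 5 with the 5 CPM filter, 0 in the compared groups alone, 1 with a replicate block, 5 with DESeq2 and 8 without the 3 libraries, and 0 to 5 with single libraries left out. Negative interactions in the Atf4 knockout, 5 in the report, numbered 10 with upper-quartile scaling, 10 with the 5 CPM filter, 8 with DESeq2 and 13 without the 3 libraries, and 4 to 9 with single libraries left out. Positive ones, 0 in the report, numbered 2 with RLE, 1 with upper-quartile scaling, 2 with the 5 CPM filter, 2 with DESeq2, 1 without the 3 libraries and 0 to 2 with single libraries left out. Negative interactions in the Cebpg knockout, 6 in the report, numbered 8 with upper-quartile scaling, 9 with the 5 CPM filter and 7 with DESeq2. They numbered 5 with a replicate block, 10 without the 3 libraries and 3 to 7 with single libraries left out. Single libraries left out gave 1 to 3 members higher in the untreated Atf4 knockout and 0 to 1 higher in the treated Cebpg knockout. The cause of these differences was not tested. Apart from RLE and upper-quartile scaling, calls over all genes were not counted under these settings. Changes in these counts are therefore not read as results about the members.

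The labels give the groups the same replicate numbers. Deviations of same-numbered libraries from their group means had correlations of -0.761 to 0.630 (45 pairs, median -0.0505), and 5 of 18 libraries correlated best with their own number, so the numbers are not taken as pairs. With the replicate block 314 of 320 member values kept their call. Aprt was lost in the halofuginone effect in the Atf4 knockout (adjusted p = 0.0631) and in the untreated Atf4 knockout (0.0616), Prps1 (0.0514) and Hprt (0.0761) in the untreated Cebpg knockout, Pfas (0.0670) between the treated knockouts and Cad (0.0638) in the Cebpg interaction.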
